A study of Mus musculus with 62 samples.

Results

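Pparg, Ppara and Ppard, the mouse genes of the 3 peroxisome proliferator-activated receptors (PPARs), were followed together with Rxra and Rxrb, which encode retinoid X receptors (RXRs), and with Ppargc1a and Ppargc1b, which encode the coactivators PGC1 alpha and PGC1 beta. These 7 genes were taken by symbol from every deposited expression table, which list between 34945 and 36119 genes each, and each gene was found in each table. The RNA came from mouse bladders, with and without tumours raised by the carcinogen BBN, and from the bladder cancer cell line BBN963, in 62 libraries and 15 groups. Treated animals or cells received rosiglitazone, a PPAR gamma agonist, together with trametinib, an inhibitor of the kinases MEK1 and MEK2; some cell groups received 1 of these drugs or all-trans retinoic acid (ATRA), a ligand of retinoic acid receptors.

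The tissue groups were all wild type: BBN-induced tumours given rosiglitazone plus trametinib for 1 month (4 libraries), BBN-induced tumours given vehicle for 1 month (3), bladders of animals that had no BBN (3), and tumours given rosiglitazone plus trametinib (4) or vehicle (3) for 5 days. The vehicle held 0.5% hydroxypropyl methylcellulose, 0.2% Tween 80 and 0.7% DMSO. BBN963 is a line from a C57bl/6 wild-type mouse, so both cell experiments describe 1 line. In the first cell experiment rosiglitazone plus trametinib, trametinib, rosiglitazone or DMSO were applied for 72 h (5 libraries each). In the second, rosiglitazone plus trametinib (4 libraries at 24 h and 4 at 72 h), ATRA (6 and 5) or DMSO (3 and 3) were applied for 24 h or 72 h. The labels do not say whether libraries of a group came from separate animals or cultures, so the p-values measure only the spread between these libraries, which may be technical.

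PPARs bind DNA as heterodimers with an RXR. A bound fatty acid or drug exchanges corepressors for coactivators, and the PGC1 proteins are coactivators of PPARs and of receptors that drive mitochondrial genes. PPAR gamma is the fat cell receptor and in the bladder is tied to differentiation of the urothelium, PPAR alpha drives fatty acid oxidation in liver, and PPAR delta is widespread. RXRs also pair with receptors for retinoic acid, thyroid hormone, vitamin D and oxysterols.

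Values are counts per gene that the authors normalised between libraries within a table, called normalised counts here, and they are compared only within a table. Differences are log2 fold changes of (value + 1) from limma, with the standard error (SE). A gene is called higher or lower where the p-value, adjusted over all genes tested in that comparison, is below 0.05. Where groups are said not to overlap, the share of all genes without overlap was not counted. Estimated depth, in mega-reads (M), was 43.3 to 61.7 M reads in 1-month rosiglitazone plus trametinib tumours, 73.4 to 77.8 M reads in 1-month vehicle tumours and 55.3 to 76.8 M reads in bladders without BBN. For the cells, depth was estimated at 29.0 to 47.6 M reads in the first experiment, and was 4.64 to 29.45 M reads in the second. In 1-month tissue 1 library, vehicle replicate 2, stood apart. Upk3a, a urothelial plaque gene, was at 1110 normalised counts in it, against 73300 and 74300 in the other vehicle tumours. Krt14, a basal keratin, was at 483000 in it, against 40000 and 57000 in those. For Pparg and Ppargc1a, differences between 1-month vehicle and treated tumours are given with and without it. Their differences from bladders without BBN are given without it or as a range over fits that each left out 1 library. Other results from 1-month tissue below are given only with it. These include the gene lists and the genes named from them, the levels per kilobase and the correlations. How far those rest on it was not tested.

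The 7 genes are protein-coding and lie on different chromosomes, except that Ppard (chr17:28232700-28301474) and Rxrb (chr17:34031812-34038399) share one, in GRCm38.p6. Pparg spans chr6:115360951-115490399 and Rxra chr2:27676440-27762957, both on the plus strand, and Ppargc1a spans chr5:51454250-51567726 on the minus strand. Ppara lies at chr15:85734983-85802819. No exon of another annotated gene overlapped an exon of these 7 genes.

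Promoters are shown for Pparg, Rxra and Ppargc1a, the 3 genes that were higher in both the 1-month treated tumours and the trametinib-treated cells described below. Pparg and Rxra have more than 1 RefSeq entry. For Pparg the most upstream entry and the one farthest downstream are given, and for Rxra the downstream one, which is the one with half-sites. Each sequence runs from 250 bases before the start of transcription to 50 after it, on the gene's strand, as RefSeq gives it for GRCm38.p6. Capitals mark AGGTCA or its reverse complement TGACCT, the half-site that PPAR and RXR proteins bind, and GGGCGG or its reverse complement CCGCCC, the GC box of Sp1.
Pparg upstream, chr6:115360894-115361193, plus strand: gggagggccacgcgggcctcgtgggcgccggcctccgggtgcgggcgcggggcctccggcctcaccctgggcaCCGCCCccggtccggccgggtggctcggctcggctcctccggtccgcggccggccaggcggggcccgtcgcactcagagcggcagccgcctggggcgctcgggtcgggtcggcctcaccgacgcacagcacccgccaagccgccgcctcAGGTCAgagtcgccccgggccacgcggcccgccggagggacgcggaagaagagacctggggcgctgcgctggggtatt
Pparg downstream, chr6:115421816-115422115, plus strand: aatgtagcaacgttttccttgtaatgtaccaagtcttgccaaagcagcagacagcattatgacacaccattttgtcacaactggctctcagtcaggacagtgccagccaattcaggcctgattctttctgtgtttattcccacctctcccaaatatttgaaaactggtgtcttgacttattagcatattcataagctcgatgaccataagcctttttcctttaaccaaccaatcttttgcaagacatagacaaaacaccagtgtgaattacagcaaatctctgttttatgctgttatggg
Rxra downstream, chr2:27709042-27709341, plus strand: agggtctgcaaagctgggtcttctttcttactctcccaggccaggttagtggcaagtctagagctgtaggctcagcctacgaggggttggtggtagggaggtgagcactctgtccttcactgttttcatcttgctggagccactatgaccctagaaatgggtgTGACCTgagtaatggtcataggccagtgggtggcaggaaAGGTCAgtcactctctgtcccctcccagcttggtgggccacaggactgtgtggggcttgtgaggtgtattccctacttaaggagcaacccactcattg
Ppargc1a, chr5:51567676-51567975, minus strand: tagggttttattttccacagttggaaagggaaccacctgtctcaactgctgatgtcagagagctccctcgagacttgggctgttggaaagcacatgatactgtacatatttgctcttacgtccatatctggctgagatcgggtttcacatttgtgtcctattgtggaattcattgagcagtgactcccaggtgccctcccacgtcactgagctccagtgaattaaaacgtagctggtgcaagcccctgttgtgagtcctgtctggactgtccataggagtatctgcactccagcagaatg

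The upstream Pparg promoter, 80.3% G and C, holds 1 half-site, from 28 to 23 bases before the start, and 1 GC box, from 177 to 172 bases before it. A Pparg entry between the 2 given, at chr6:115362099-115362398 and not shown, is 62.7% G and C. It holds 1 half-site, from 9 to 4 bases before the start, and 2 GC boxes. The downstream Pparg promoter is 40.3% G and C and holds neither motif, and the Ppargc1a promoter, at 48.7%, holds neither. The downstream Rxra promoter holds 2 half-sites, from 87 to 82 and from 48 to 43 bases before the start, and no GC box. The upstream Rxra promoter, at chr2:27676951-27677250 and not shown, is 83.0% G and C and holds no half-site and 4 GC boxes. The half-site was found in 16.3% and the GC box in 35.6% of the 32817 RefSeq mouse promoters of this length, on either strand. The PPAR and RXR element AGGTCANAGGTCA, a pair of half-sites that overlaps the single half-site search, was found in 0.0396% of them and in none of the 10 entries for 6 of the members. These matches describe letters in a window only.

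Tumours that had received vehicle had less RNA of 4 of the 7 genes than bladders without BBN. This comparison sets tumours after the 1-month vehicle course against bladders that never had the carcinogen. Rxra, the main RXR of epithelia, fell to 4572, 6248 and 6909 normalised counts in vehicle tumours, against 20240, 19320 and 16710 in bladders without BBN. Pparg fell to 4072, 1515 and 3754 in vehicle tumours, against 10670, 12120 and 12630 in bladders without BBN. For both genes every tumour lay below every bladder without BBN, and the vehicle replicate that stood apart had the lowest Pparg. The log2 fold changes were −1.68 ± 0.15 for Rxra (SE; adjusted p = 0.000102) and −2.05 ± 0.31 for Pparg (adjusted p = 0.00121). Pparg stayed called in each of the 6 fits that left out 1 library, with differences of −2.30 to −1.59.

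Ppara was at 384, 760 and 619 normalised counts in vehicle tumours, against 1927, 1657 and 1432 in bladders without BBN (log2 fold change −1.55 ± 0.34 SE, adjusted p = 0.00749). Ppargc1a was at 313, 16.0 and 58.5 in vehicle tumours, against 782, 588 and 703 in bladders without BBN (−3.33 ± 0.84, adjusted p = 0.0152). The groups did not overlap for either gene, but the vehicle tumours were far apart from each other in Ppargc1a: its difference was −4.43 without vehicle replicate 1 and −2.33 without replicate 2, and in a fit of these 2 groups alone the adjusted p was 0.054. Among all 18762 genes tested, 26.4% were called in this comparison, 15.0% higher and 11.4% lower. Ppard, Rxrb and Ppargc1b were not called. Ppargc1b, which lies at chr18:61298136-61400431 in GRCm38.p6, was at 588, 619 and 608 in vehicle tumours, against 419, 433 and 434 in bladders without BBN, without overlap (0.50 ± 0.20, adjusted p = 0.0862).

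After 1 month of rosiglitazone plus trametinib, the same 4 genes were higher than in vehicle tumours, and the remaining 3 were not called. Both comparisons use the same 3 vehicle tumours, so a low value in one of them enters both. Of all 18762 genes tested, 23.8% were called between treated and vehicle tumours, 10.1% higher and 13.7% lower. Rxra was at 14300, 15530, 14960 and 14030 normalised counts in treated tumours, against 4572, 6248 and 6909 in vehicle tumours. The treated tumours lay close together and all above the vehicle tumours, a 2.52-fold difference (log2 fold change 1.34 ± 0.14 SE, adjusted p = 0.000278). Rxra was called in each of the 7 fits that left out 1 library, with differences of 1.16 to 1.46.

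Pparg was at 6233, 5752, 7541 and 6003 normalised counts in treated tumours, against 4072, 1515 and 3754 in vehicle tumours. No treated tumour overlapped a vehicle tumour (log2 fold change 1.15 ± 0.29 SE, adjusted p = 0.0172). Without vehicle replicate 2 the difference was 0.70 (adjusted p = 0.00396), so that library sets much of its size. Ppara was at 1496, 1025, 2108 and 950 in treated tumours, against 384, 760 and 619 in vehicle tumours, again without overlap (1.23 ± 0.32, adjusted p = 0.0189). Its call was lost without vehicle replicate 1, the lowest of the 3 (0.95, adjusted p = 0.0715).

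Ppargc1a had the largest fold of the 7 genes and the least certain one. It was at 269, 401, 634 and 278 normalised counts in treated tumours, against 313, 16.0 and 58.5 in vehicle tumours. The groups overlapped, since vehicle replicate 1 was above 2 of the 4 treated tumours. The fitted difference was 5.45-fold (log2 fold change 2.45 ± 0.79 SE, adjusted p = 0.0463, 95% interval 0.70 to 4.19). The call was lost in 6 of the 7 fits that left out 1 library, including the fit without vehicle replicate 2 (1.45, adjusted p = 0.0994), and with no filter on low values (adjusted p = 0.0613); without vehicle replicate 1 the difference was 3.55 (adjusted p = 0.004).

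The other receptors and PGC1 beta were not called. Ppargc1b was at 762, 627, 629 and 771 normalised counts in treated tumours, against 588, 619 and 608 in vehicle tumours, without overlap but not called (0.20 ± 0.18, adjusted p = 0.466). Rxrb differed by 0.30 ± 0.14 (adjusted p = 0.167). Ppard was at 230, 362, 351 and 325 in treated tumours, against 268, 334 and 378 in vehicle tumours, and its small difference of −0.05 turned to 0.10 when the libraries were quantile normalised.

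**Figure D1:**
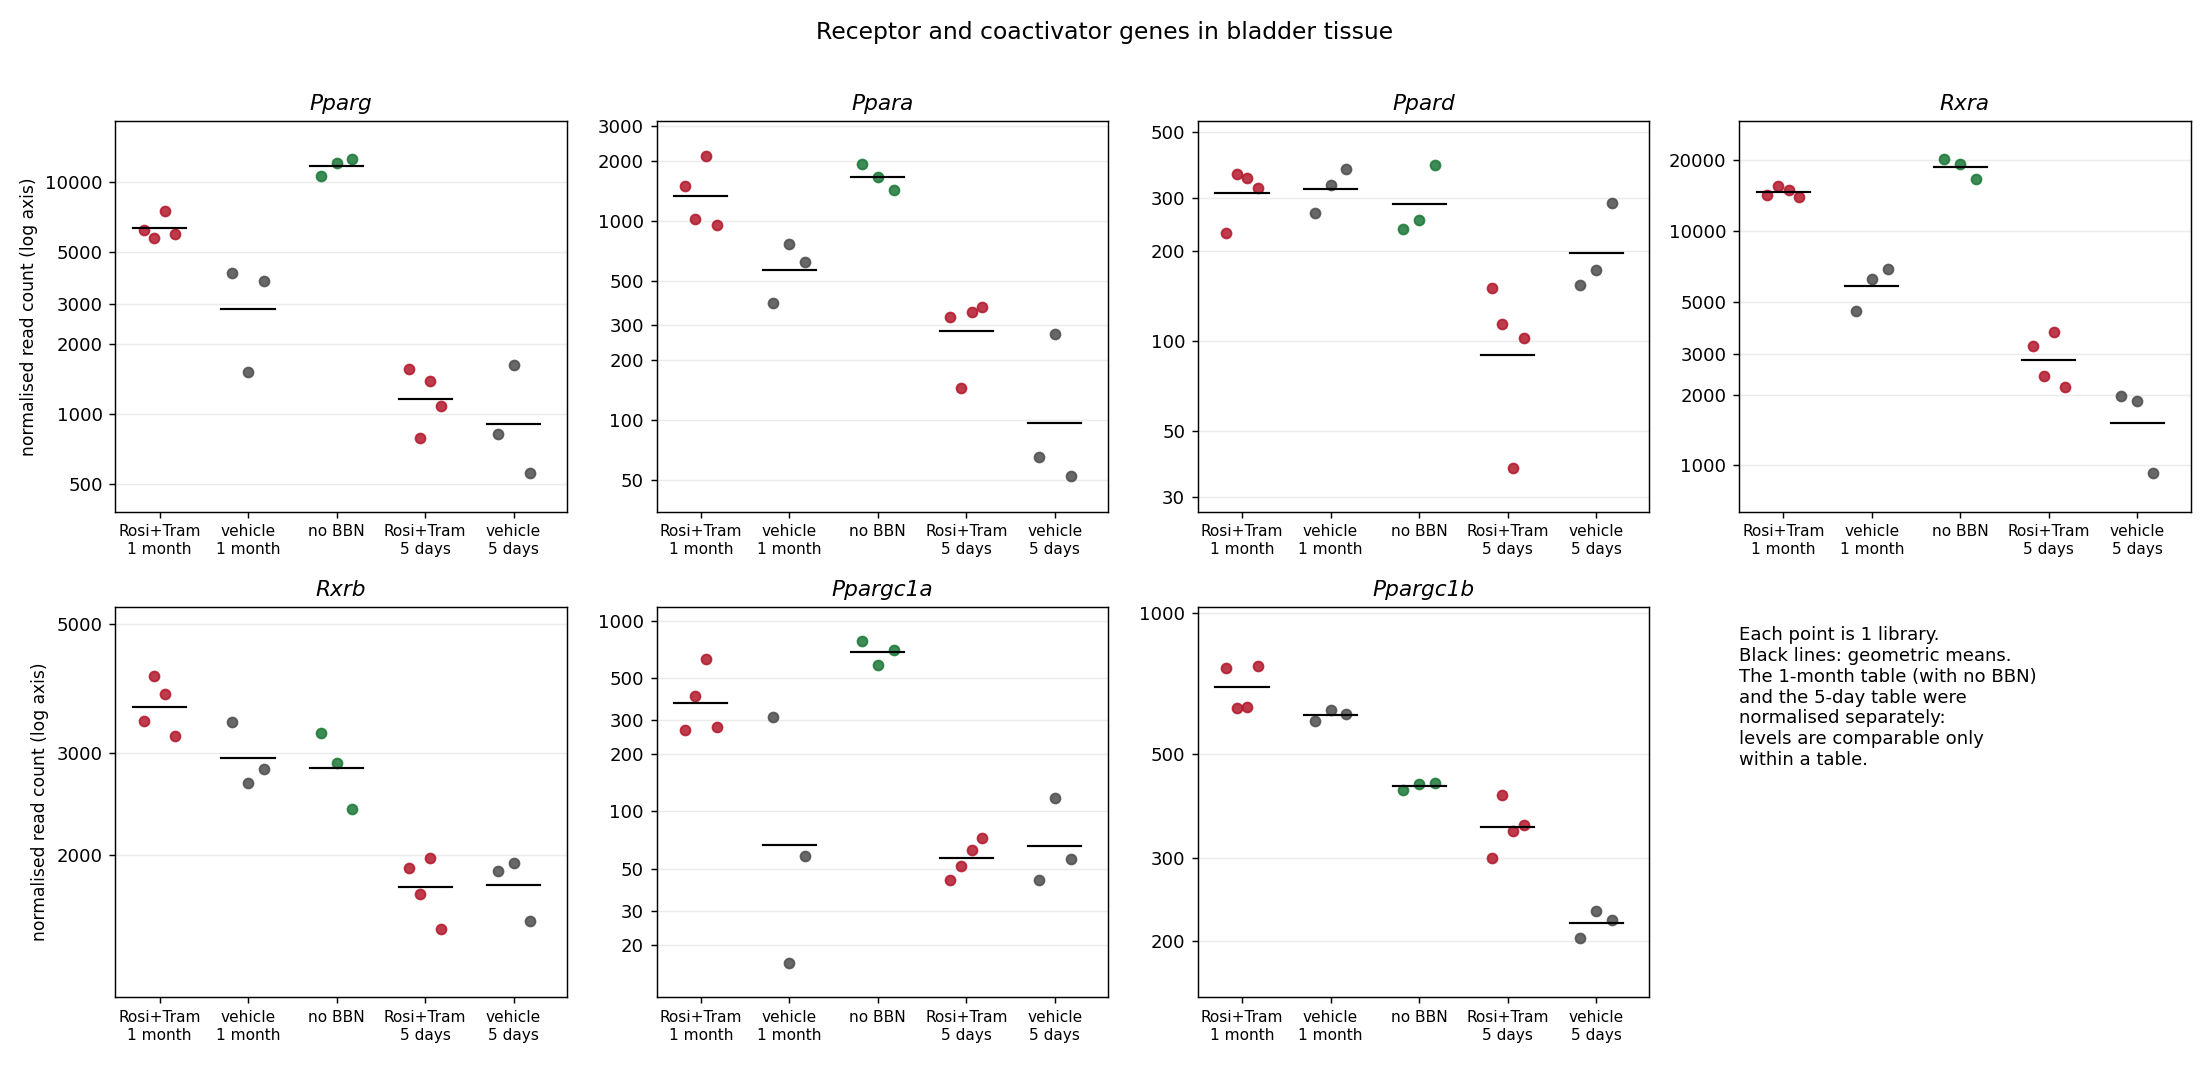
Normalised counts of the 7 genes in bladder tissue, on log axes, with 1 point per library and a line at each group's geometric mean. Treated tumours at 1 month lie between 14030 and 15530 for Rxra, above all vehicle tumours, while 1 vehicle tumour reaches the treated range for Ppargc1a.

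Treated tumours at 1 month were also set against bladders without BBN. None of the 7 genes was called, against 4.01% of all 18762 genes tested. That share is 753 genes, and it rests on single libraries: 141 were called without no-BBN replicate 2, 164 without no-BBN replicate 3, 384 without treated replicate 2 and 470 without treated replicate 3. By unadjusted p below 0.05 in limma, 3493 of all 18762 genes differed, and 4 of the 7: Pparg, Rxra, Rxrb and Ppargc1b. Pparg differed by −0.89 ± 0.29 (SE; adjusted p = 0.128), with all 4 treated tumours below all 3 bladders without BBN; in a fit of these 2 groups alone the adjusted p was 0.00556. Rxra differed by −0.35 ± 0.14 (adjusted p = 0.223), and Ppargc1b by 0.70 ± 0.18 (adjusted p = 0.0658). Ppara overlapped between the groups, with a 95% interval of −1.03 to 0.37.

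Markers of other cells moved with the 1-month comparison. The summed normalised counts of T and NK cell markers were 2890 to 19400 in treated tumours, 66200 to 101000 in vehicle tumours and 1860 to 5180 in bladders without BBN. Macrophage markers summed to 20100 to 58900 in treated tumours, 137000 to 487000 in vehicle tumours and 87300 to 163000 in bladders without BBN. Neutrophil markers summed to 856 to 11800 in treated tumours, 11500 and 12700 in vehicle tumours with 396000 in vehicle replicate 2, and 733 to 1400 in bladders without BBN. Epithelial markers summed to 845000 to 950000 in treated tumours, 635000 and 693000 in vehicle tumours with 986000 in vehicle replicate 2, and 897000 to 1050000 in bladders without BBN. Vehicle replicate 2 thus lay above all treated tumours, and the other vehicle tumours below them. Of the 17 epithelial markers 5 were called higher and 0 lower in treated than in vehicle tumours, against 10.1% and 13.7% of all genes. One of this list, Gata3, was at 19800 to 25500 in treated tumours, 11000 to 12900 in vehicle tumours and 30200 to 46900 in bladders without BBN. Vehicle replicate 2 was also low in fibroblast markers, at 79200 against 490000 and 547000 in the other vehicle tumours, and in endothelial markers, at 7030 against 21500 and 23800. Adipocyte markers summed to 1280 to 2170 in treated tumours, 2190 to 2270 in vehicle tumours and 1320 to 2200 in bladders without BBN. Of the 6 tested, 0 were called between treated and vehicle tumours, against 10.1% higher and 13.7% lower of all genes. Their median log2 fold change was −1.61, against 0.04 for all genes. One of them, Adipoq, which defines fat cells, was low, at 0 to 4.07 in treated tumours, 2.3 to 38.9 in vehicle tumours and 14.3 to 25.8 in bladders without BBN. In such bulk samples fewer cells of a type and less RNA per cell cannot be told apart, and the part these cells have in the receptor values was not tested.

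At 5 days none of the 7 genes was called between treated and vehicle tumours, against 6.17% of the 16891 genes tested. That share is 1043 genes, against 404 and 521 without vehicle replicate 1 or 3, and 602 and 589 without treated replicate 1 or 3. By unadjusted p below 0.05 in limma, 3762 of all 16891 genes differed, and 3 of the 7: Ppara, Rxra and Ppargc1b. Rxra was at 3218, 2405, 3719 and 2158 normalised counts in treated tumours, against 1983, 1884 and 926 in vehicle tumours. All treated tumours were above all vehicle tumours (log2 fold change 0.89 ± 0.32 SE, adjusted p = 0.152). Ppargc1b was at 300.3, 410, 342 and 352 in treated tumours, against 203, 232 and 222 in vehicle tumours, also without overlap (0.67 ± 0.22, adjusted p = 0.121).

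Ppara was at 327, 144, 349 and 368 normalised counts in tumours treated for 5 days, against 64.8, 269 and 52.0 in vehicle tumours (1.51 ± 0.63, adjusted p = 0.214). It was called without vehicle replicate 2 (2.24, adjusted p = 0.0444). Pparg was at 1565, 788, 1387 and 1083 in treated tumours, against 822, 1633 and 554 in vehicle tumours, with the highest value in a vehicle tumour (0.36 ± 0.39, 95% interval −0.55 to 1.28). Ppard was at 150, 114, 37.8 and 102 in treated tumours, against 154, 173 and 289 in vehicle tumours (−1.12 ± 0.52, adjusted p = 0.257). Ppargc1a overlapped between the groups, with 43.8 to 72.2 in treated tumours and 43.7 to 118 in vehicle tumours.

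The 5-day groups also differed in makeup and depth. Epithelial markers summed to 205000 to 355000 in treated tumours, against 87400 to 176000 in vehicle tumours, without overlap. Neutrophil markers summed to 1130 to 7390 in treated tumours and 84200 to 207000 in vehicle tumours. Estimated depth was 17.8 to 23.4 M reads in treated tumours and 33.6 to 69.9 M reads in vehicle tumours. Vehicle replicate 2, the tumour with the highest Ppara and Pparg of its group, had 8850 normalised counts of Gata3, against 2140 and 1620 in the other vehicle tumours. The part of makeup and depth in the 5-day values was not tested.

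The treatment effect at 1 month minus that at 5 days was tested directly, and none of the 7 genes was called, against 0.00534% of 18721 genes. That is 1 gene, against 123 without 1-month vehicle replicate 2. By unadjusted p below 0.05 in limma, 2867 of all 18721 genes passed. Of the 7, Ppargc1a alone did, with a difference of effects of 2.67 ± 1.06 (SE, adjusted p = 0.258). For Rxra the difference of effects had a 95% interval of −0.35 to 1.24, and for Pparg −0.39 to 1.98.

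In BBN963 cells, rosiglitazone alone left the 7 genes near their DMSO values, while trametinib changed 6 of them. The line was checked first: the labels call it basal, and Krt5, which defines basal urothelium, was at 0.838 to 6.85 normalised counts in DMSO cells of the first experiment, while Krt14, another basal keratin, was at 1620 to 2160. Each treatment sits in its own table with the same 5 DMSO libraries, so the 3 comparisons with DMSO share their controls. With rosiglitazone no gene of the 14218 tested was called in limma, which is 0% for all genes and 0 of the 7; 940 of all genes and 0 of the 7 passed unadjusted p below 0.05. Without DMSO replicate 4, 71 of all genes and still 0 of the 7 were called.

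Pparg, the receptor of the drug, was at 295, 307, 343, 289 and 231 normalised counts in rosiglitazone cells, against 309, 288, 372, 314 and 337 in DMSO cells. The groups overlapped, and the 95% interval of the log2 fold change was −0.37 to 0.07. The intervals of Ppard (−0.19 to 0.02), Rxra (−0.11 to 0.18), Rxrb (−0.12 to 0.09) and Ppargc1b (−0.34 to 0.02) were narrower. Those of Ppara (−0.36 to 0.65) and Ppargc1a (−0.77 to 0.27) were wider, since their values were low or scattered.

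With trametinib alone 3 of the 7 genes were higher and 3 lower than with DMSO, and 71.1% of the 14414 genes tested were called, 35.8% higher and 35.3% lower, so a call by itself sets no gene apart here. Ppargc1a was at 589, 605, 565, 623 and 564 normalised counts in trametinib cells, against 75.5, 129, 120, 53.5 and 78.8 in DMSO cells. Every treated library lay above the highest control, a 6.71-fold difference (log2 fold change 2.75 ± 0.19 SE, adjusted p = 9.67e-09). Pparg was at 569, 544, 544, 617 and 549 in trametinib cells, against 315, 293, 378, 327 and 343 in DMSO cells (0.77 ± 0.07, adjusted p = 3.09e-07). Rxra was higher by 0.26 ± 0.05 (adjusted p = 0.000407), with 2319 to 2641 in trametinib cells and 1892 to 2157 in DMSO cells.

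Lower with trametinib were Ppard, Rxrb and Ppargc1b. The PGC1 genes therefore moved apart: Ppargc1b was at 148, 167, 123, 143 and 147 normalised counts in trametinib cells, against 262, 333, 303, 277 and 296 in DMSO cells (−1.01 ± 0.10, adjusted p = 2.93e-07). Ppard was at 1455 to 1589 in trametinib cells and 2376 to 2559 in DMSO cells (−0.70 ± 0.04, adjusted p = 1.87e-09). Rxrb was at 1263 to 1527 in trametinib cells and 1585 to 1923 in DMSO cells (−0.30 ± 0.06, adjusted p = 0.000452). The groups did not overlap for any of these 6 genes, but how many of all genes showed the same was not counted. Ppara was at 6.45 to 37.6 in trametinib cells and 9.36 to 17.4 in DMSO cells, and was not called.

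With both drugs 3 genes were higher and 4 lower than with DMSO, and 72.5% of all genes tested were called, 36.3% higher and 36.2% lower. Ppargc1a was at 483, 477, 481, 496 and 450 normalised counts in cells with both drugs, against 67.7, 116, 108, 48.1 and 70.8 in DMSO cells, 6.05-fold higher (log2 fold change 2.60 ± 0.19 SE, adjusted p = 2.61e-08). Pparg was at 481, 443, 461, 424 and 487 in cells with both drugs, against 283, 263, 339, 294 and 309 in DMSO cells (0.63 ± 0.08, adjusted p = 4.56e-06). Ppargc1b was at 124 to 164 with both drugs and 242 to 306 with DMSO (−0.95 ± 0.10). Ppara, the fourth gene called lower, was at 7.47 to 10.9 with both drugs and 9.51 to 17.6 with DMSO, so its groups overlapped at a low level (−0.69 ± 0.24, adjusted p = 0.0207).

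**Figure D2:**
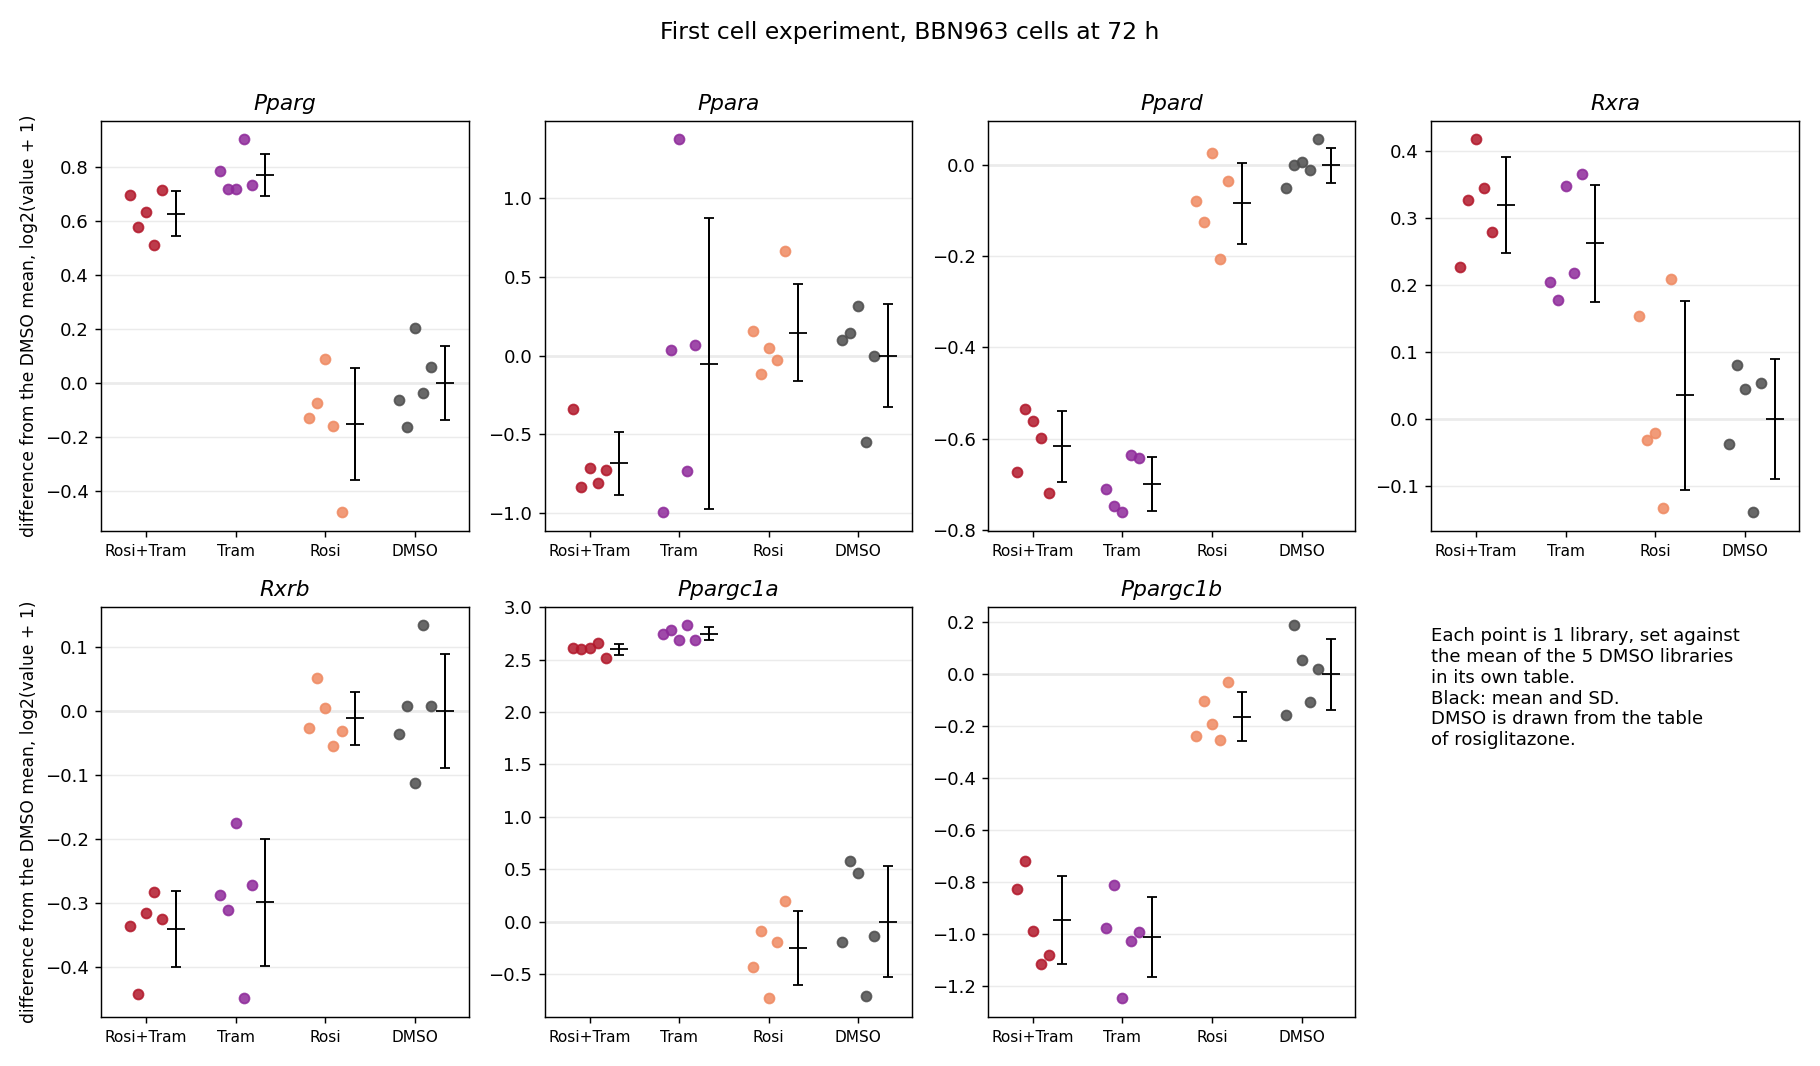
The first cell experiment: difference of each library from the DMSO mean of its own table, in log2 of (normalised count + 1), with mean and SD (n = 5 libraries a group, 72 h). Ppargc1a averages 2.60 units above DMSO with both drugs and 2.75 with trametinib, and overlaps DMSO with rosiglitazone alone.

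Both drugs were then set against each drug alone, joining the tables through their shared DMSO libraries. Against rosiglitazone alone all 7 genes were called, 3 higher and 4 lower, with 72.8% of all genes called, 36.2% higher and 36.6% lower; Ppara lost its call without rosiglitazone replicate 5 (−0.70, adjusted p = 0.0751). Against trametinib alone none of the 7 genes was called, against 7.21% of all genes tested. By unadjusted p below 0.05 in limma also 0 of the 7 differed, against 3093 of all genes. The difference was −0.15 ± 0.08 for Pparg (SE; adjusted p = 0.348, 95% interval −0.32 to 0.03) and −0.15 for Ppargc1a (adjusted p = 0.714, interval −0.53 to 0.23). Once joined, every library with both drugs lay below every library with trametinib alone for each of these genes, without a call. For Rxra the interval was −0.07 to 0.18, and for Ppard −0.01 to 0.18. The test of whether the drugs act beyond the sum of their single effects on the log scale called none of the 7 either, against 1.94% of all genes. That share is 291 genes, but 1217 without DMSO replicate 4 and 191 without DMSO replicate 5 or rosiglitazone replicate 4. By unadjusted p below 0.05 in limma, 2078 of all genes passed. Of the 7, Ppard alone did, with an interval of 0.04 to 0.30. For Pparg that interval was −0.24 to 0.25.

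In the second cell experiment ATRA raised Pparg at both times, and rosiglitazone plus trametinib did not. Its values are whole read counts divided by 1 size factor per library. Ppara had 0 to 8 reads a library and Ppargc1a few, so 5 of the 7 genes were tested by limma. At 24 h Pparg had a lowest, median and highest value of 156, 171 and 182 normalised counts in 6 ATRA libraries, against 104, 84.5 and 74.3 in DMSO cells. All ATRA libraries were above all DMSO libraries (log2 fold change 0.96 ± 0.14 SE, adjusted p = 1.46e-05), with 25.4% of all genes called, 12.5% higher and 12.9% lower. At 72 h Pparg was at 163, 119, 144, 138 and 131 in ATRA cells, against 58.0, 79.6 and 72.5 in DMSO cells (0.98 ± 0.14, adjusted p = 1.75e-05), with 16.7% called, 9.58% higher and 7.15% lower. The ATRA effect at 72 h minus that at 24 h was called for none of the 5 genes, against 0.05% of all genes. By unadjusted p below 0.05 in limma, 718 of all genes and 0 of the 5 differed. ATRA 72 h replicate 1 stood apart in its group. Its epithelial markers summed to 18200, against 22800 to 23600 in the others and 18800 to 20000 with ATRA at 24 h. Its smooth muscle markers summed to 949, against 1420 to 1670, and 954 to 1410 at 24 h. Without it 160 of all genes and 0 of the 5 were called. Why it stood apart was not tested.

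With ATRA Ppard was lower at both times, and Rxra at 24 h. Ppard was at 529, 409, 447, 424 and 470 normalised counts in ATRA cells at 72 h, against 642, 571 and 613 in DMSO cells (−0.42 ± 0.08, adjusted p = 0.00103). At 24 h its difference was −0.24 (adjusted p = 0.034) and the call was lost in 5 of the fits that left out 1 library: without DMSO 24 h replicate 1 (−0.20) or 3 (−0.24), or without ATRA 24 h replicate 1 (−0.22), 3 (−0.23) or 5 (−0.20). It was lost too with quantile normalisation (adjusted p = 0.0721), with no filter on low values (adjusted p = 0.0666) and in edgeR (adjusted p = 0.0715). Rxra had a lowest, median and highest value of 336, 373 and 390 in ATRA cells at 24 h, against 415, 463 and 466 in DMSO cells (−0.29, adjusted p = 0.00888); without DMSO 24 h replicate 3 it was −0.26 (adjusted p = 0.0542). At 72 h Rxra was not called, with an interval of −0.31 to 0.01. Rxra was itself lower in DMSO cells at 72 h, with 336, 353 and 371, than in DMSO cells at 24 h (−0.34, adjusted p = 0.0129), a comparison in which 13.6% of all genes were called, 5.57% higher and 8.01% lower; it was not called without DMSO 24 h replicate 3 (adjusted p = 0.0578) or DMSO 72 h replicate 1 (adjusted p = 0.0677).

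With rosiglitazone plus trametinib, Ppargc1b was called at both times in limma. It was at 32.6, 34.6, 43.6 and 31.1 normalised counts in treated cells at 24 h, against 58.4, 54.1 and 63.7 in DMSO cells (−0.72 ± 0.17, adjusted p = 0.00104). At 72 h it was at 28.4, 23.1, 23.0 and 37.8 in treated cells, against 52.5, 64.8 and 58.0 in DMSO cells (−1.06 ± 0.17, adjusted p = 6.68e-06). No treated library reached a DMSO library at either time. Of all genes tested, 54.9% were called at 24 h, 27.7% higher and 27.2% lower, and 69.4% at 72 h, 34.4% higher and 35.1% lower.

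Pparg was at 70.8, 57.2, 62.2 and 75.4 normalised counts in treated cells at 24 h, against 104, 84.5 and 74.3 in DMSO cells (−0.39 ± 0.15, adjusted p = 0.0256). That call was lost without DMSO 24 h replicate 1 (−0.26, adjusted p = 0.182), without treated replicate 2 (−0.32, adjusted p = 0.0827) and without treated replicate 3 (−0.36, adjusted p = 0.0583). At 72 h Pparg was at 88.5, 59.4, 70.5 and 82.0 in treated cells, against 58.0, 79.6 and 72.5 in DMSO cells, with an interval of −0.21 to 0.40. The treatment effect at 72 h minus that at 24 h was called for none of the 5 genes, against 24.6% of all genes. By unadjusted p below 0.05 in limma, 5111 of all genes passed, and of the 5 Pparg alone. Rxrb was at 306, 312, 335 and 320 in treated cells at 72 h, against 270, 288 and 246 in DMSO cells (0.25 ± 0.09, adjusted p = 0.017), a call lost without DMSO 72 h replicate 3 (0.19, adjusted p = 0.104). At 24 h Rxrb was not called (adjusted p = 0.0575), but was in edgeR (0.22, adjusted p = 0.0487), with quantile normalisation (adjusted p = 0.0226) and in a fit of the compared groups alone (adjusted p = 0.0353). Rxra at 72 h was not called either (0.17, adjusted p = 0.0716), but was in edgeR (adjusted p = 0.0338), in DESeq2 (adjusted p = 0.0445) and with quantile normalisation (adjusted p = 0.0438).

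Set directly against ATRA, rosiglitazone plus trametinib gave less Pparg at 24 h (−1.35 ± 0.12) and at 72 h (−0.89, 95% interval −1.15 to −0.62). Of all genes tested, 42.7% were called at 24 h, 21.1% higher and 21.6% lower, and 67.4% at 72 h, 33.4% higher and 34% lower. Rxra was higher with both drugs than with ATRA at both times, by 0.28 at 24 h and 0.32 at 72 h, and Ppard by 0.20 and 0.28. The Ppard call at 24 h was lost without ATRA 24 h replicate 1, 3 or 5 and without treated replicate 1, 3 or 4, with differences of 0.17 to 0.21, with no filter on low values (adjusted p = 0.0639) and in edgeR (adjusted p = 0.0515). Ppargc1b was lower with both drugs than with ATRA at 72 h, by −0.93.

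Ppargc1a was low in the second experiment. At 72 h it was at 9.47, 9.89, 10.1 and 12.6 normalised counts in cells with both drugs, against 4.70, 4.94 and 3.87 in DMSO cells, without overlap. edgeR on the whole reads of all genes, a test chosen after seeing the data, gave a fold of 2.24 at 72 h (adjusted p = 0.0368) and 2.18 at 24 h (adjusted p = 0.151).

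**Figure D3:**
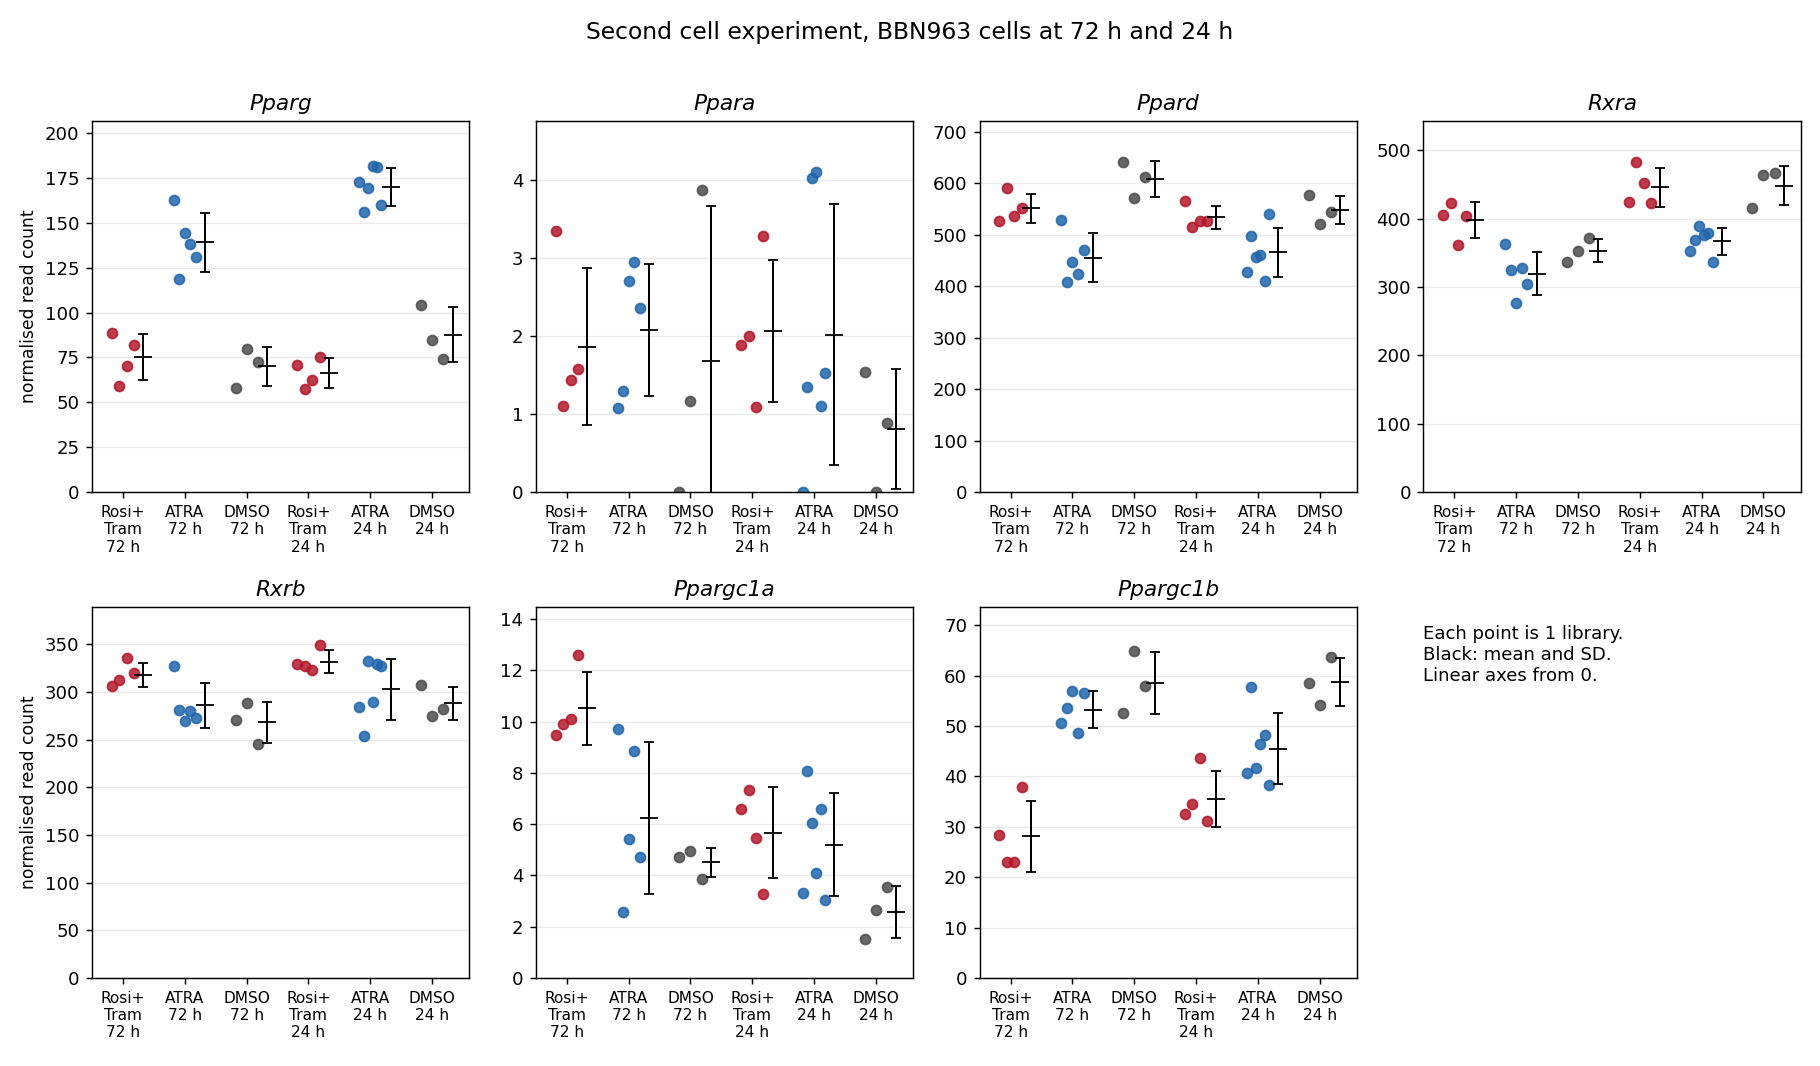
The second cell experiment: normalised counts of the 7 genes by library, with mean and SD, for rosiglitazone plus trametinib (n = 4), ATRA (n = 5 at 72 h, 6 at 24 h) and DMSO (n = 3), at 72 h on the left and 24 h on the right of each panel. All ATRA libraries lie above the DMSO libraries for Pparg at both times.

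The same 72 h treatment was thus given in both cell experiments. The effect in the first minus that in the second was tested for the 7 genes, and 4 were called, 2 in each direction, against 47% of all genes, 24.3% higher and 22.7% lower. The difference of effects was 0.53 ± 0.17 for Pparg (SE; adjusted p = 0.0145), −0.48 for Ppard (adjusted p = 3.38e-05), −0.59 for Rxrb (adjusted p = 1.85e-05) and 1.54 ± 0.29 for Ppargc1a (adjusted p = 0.000218). The low Ppargc1a values of the second experiment lie where adding 1 before the logarithm shrinks a fold change. Without that addition, edgeR on whole reads gave a log2 fold change of 1.16 there at 72 h. In the first experiment limma gave 2.6. The part of the addition in the difference of effects was not tested. For Ppargc1b, which was lower with both drugs in each experiment, the difference of effects had an interval of −0.32 to 0.54. The Pparg call was lost without DMSO 72 h replicate 2 (0.43, adjusted p = 0.0571) and with quantile normalisation (0.41, adjusted p = 0.0518).

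**Figure D4:**
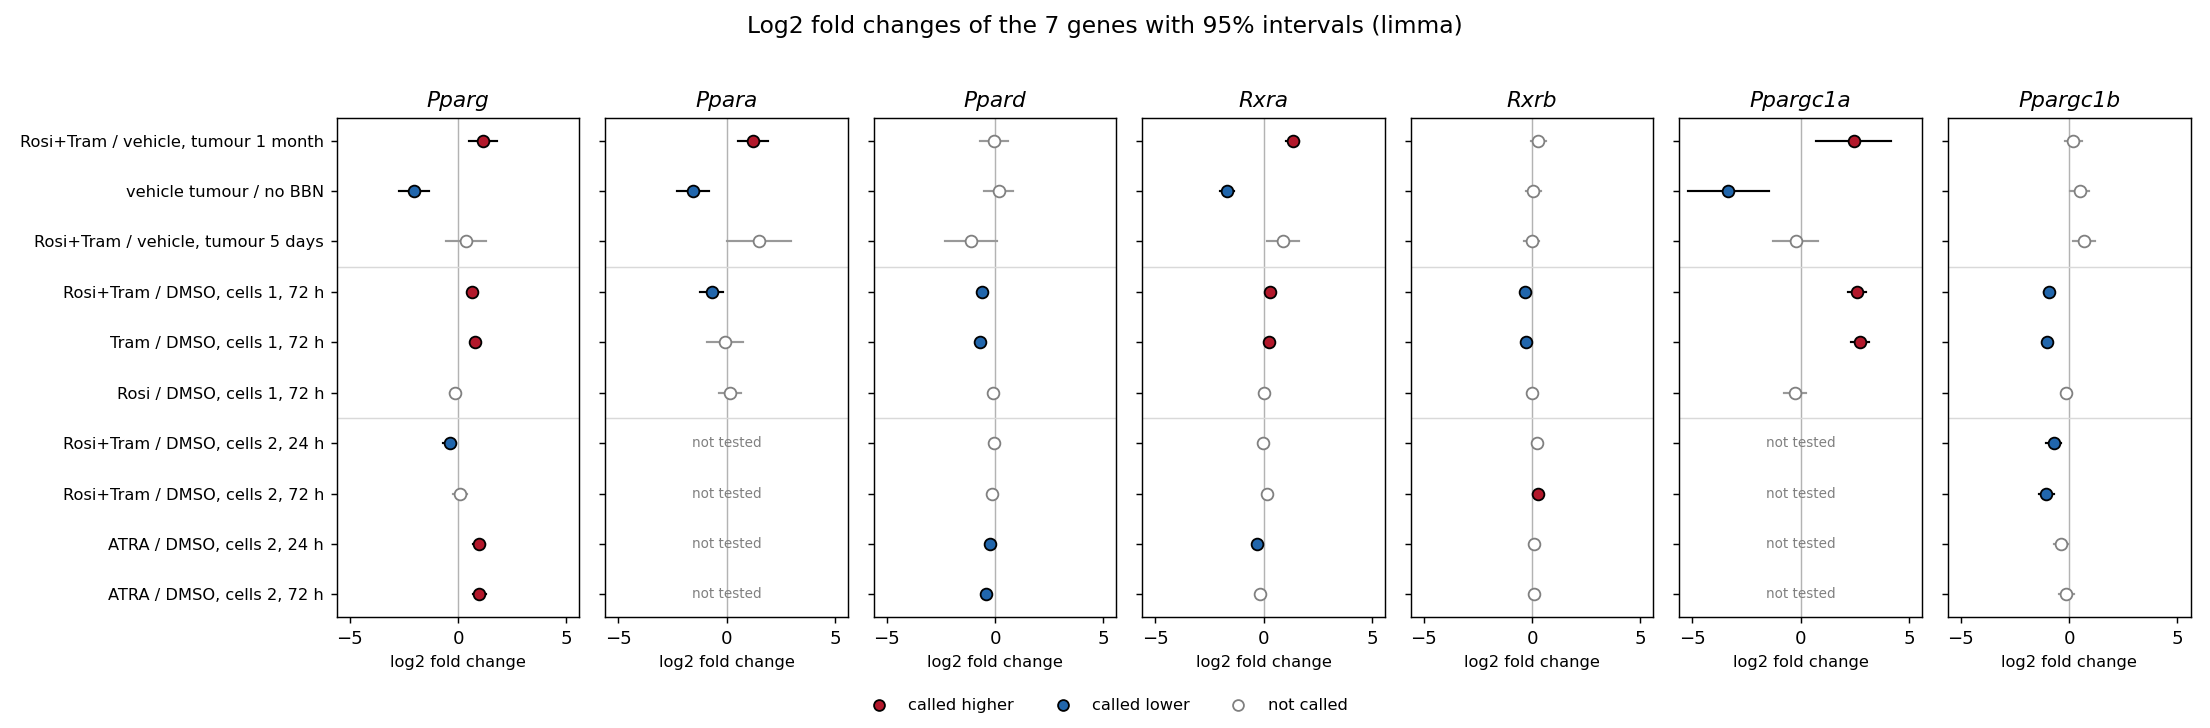
Log2 fold changes of (normalised count + 1) with 95% intervals for the 7 genes, 1 panel per gene and 1 line per comparison; filled red points are called higher, filled blue points called lower and open points not called (limma, adjusted p below 0.05). Ppargc1b is called lower in each comparison shown of trametinib-treated cells with DMSO cells, and is not called in the tumour comparisons.

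The 7 genes kept different ranks in tissue and in cells. Divided by exon length, normalised counts per kilobase in bladders without BBN averaged 4000 ± 344 for Pparg and 3430 ± 335 for Rxra (SD, n = 3), and these overlapped. Rxrb followed with 716, Ppara with 436, Ppargc1b with 107 and Ppargc1a with 105, the last pair overlapping, and Ppard was lowest with 39.1. In treated tumours at 1 month Rxra led with 2690 ± 124 per kilobase and Pparg followed with 2160 ± 270 (SD, n = 4). In vehicle tumours at 1 month Rxra had 1080 ± 221 and Pparg 1050 ± 472 (SD, n = 3), which overlapped. At 5 days Rxra led with 526 in treated tumours and Rxrb with 450 in vehicle tumours, each overlapping the next gene.

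In DMSO cells of the first experiment, normalised together with the cells given both drugs, Rxrb led with 407 normalised counts per kilobase. Rxra followed with 342, Ppard with 305 and Pparg with 101. Ppara was lowest with 3.74. With both drugs Rxra led with 427 per kilobase, and Ppargc1a, at 72.4, stood above Ppargc1b, at 35.2. In these DMSO cells Ppargc1b, at 67.9, stood above Ppargc1a, at 12.4. The second experiment did not show this order at 72 h. With both drugs Rxrb led there with 80.2, Rxra had 72.9, and Ppargc1a, at 1.59, stood below Ppargc1b, at 7.04. In DMSO cells of the second experiment at 72 h Ppard led with 81.0. Ppard, lowest of the 7 in bladders without BBN, was among the 3 highest in cells of both experiments.

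Downstream of the receptors, a list of 24 PPAR target genes was mostly lower in vehicle tumours than in bladders without BBN and partly higher with treatment. Of the 23 tested, 1 was higher and 12 were lower in vehicle tumours, with a median log2 fold change of −0.60 against −0.02 for all genes. In treated against vehicle tumours at 1 month 9 were higher and 0 lower, with a median of 0.41 against 0.04 for all genes. Of all genes, 15% were called higher and 11.4% lower in vehicle tumours against bladders without BBN. In treated against vehicle tumours these shares were 10.1% and 13.7%. Cpt1a, which admits long-chain fatty acids to mitochondria, averaged 11700 normalised counts in treated tumours and 6510 in vehicle tumours (0.86 ± 0.14, adjusted p = 0.00227). At 5 days 0 of the 22 tested were called by limma, against 6.17% of all genes, with a median of 0.36 against 0.04 for all genes.

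Pdk4, a kinase that turns off pyruvate dehydrogenase and a classical PPAR target, averaged 868 normalised counts in vehicle tumours and 13600 in bladders without BBN (−4.05 ± 0.40, adjusted p = 0.00014). In treated tumours at 1 month it averaged 3000, against 13600 in bladders without BBN (−2.30 ± 0.38, adjusted p = 0.0122). It was the 1 target called in that comparison, where 4.01% of all genes were called.

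In cells none of the 16 targets tested was called with rosiglitazone by limma, with a median of 0.10. With trametinib 11 of 17 were higher and 3 lower (median 0.52 against 0.01 for all genes), and with both drugs 10 of 15 were higher and 2 lower (median 0.63 against 0.01). Of all genes tested, 71.1% were called with trametinib (35.8% higher, 35.3% lower) and 72.5% with both drugs (36.3% higher, 36.2% lower). Angptl4, a secreted inhibitor of lipoprotein lipase, averaged 1120 normalised counts in trametinib cells and 315 in DMSO cells (1.83 ± 0.07, adjusted p = 2.52e-11). With both drugs it averaged 2110, against 290 in DMSO cells (2.86 ± 0.07, adjusted p = 3.94e-13). Cpt1a averaged 9450 in trametinib cells and 3270 in DMSO cells (1.53 ± 0.04, adjusted p = 7.85e-13). Ucp2, a mitochondrial carrier, was lower by −0.92 ± 0.13 with trametinib and by −1.17 ± 0.15 with both drugs. In the second experiment 9 of 16 targets were higher and 2 lower with both drugs at 24 h (median 0.53), and 9 higher and 3 lower at 72 h (median 0.57). With ATRA 6 were higher and 1 lower at 24 h (median 0.18), and 5 higher and 0 lower at 72 h (median 0.28). Of all genes, 27.7% were called higher and 27.2% lower with both drugs at 24 h, and 34.4% and 35.1% at 72 h. With ATRA the shares were 12.5% and 12.9% at 24 h, and 9.58% and 7.15% at 72 h.

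Other partners of RXR, with Rxrg the third RXR, form a list of 14 genes. In vehicle tumours against bladders without BBN 2 of 13 were higher and 4 lower (median −0.01), and in treated against vehicle tumours at 1 month 3 were higher and 3 lower (median 0.10). Of all genes, 15% were called higher and 11.4% lower in the first comparison, and 10.1% and 13.7% in the second. The medians of all genes were −0.02 and 0.04. Rara, a retinoic acid receptor, averaged 1130 normalised counts in treated and 2850 in vehicle tumours at 1 month (−1.35 ± 0.21, adjusted p = 0.00155). At 5 days it was called too, with 822 in treated and 2260 in vehicle tumours (−1.43 ± 0.22, adjusted p = 0.0102). Thrb, a thyroid hormone receptor, averaged 1110 in treated and 371 in vehicle tumours at 1 month (1.54 ± 0.26, adjusted p = 0.00256). In cells of the first experiment 5 of 10 were higher and 2 lower with both drugs (median 0.38), 7 higher and 2 lower with trametinib (median 0.39), and 0 either way with rosiglitazone in limma. Of all genes, 36.3% were called higher and 36.2% lower with both drugs, 35.8% and 35.3% with trametinib, and 0% with rosiglitazone.

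Rarb, a retinoic acid receptor and itself a target of that ligand, averaged 65.3 normalised counts in ATRA cells at 72 h and 11.8 in DMSO cells (2.35 ± 0.21, adjusted p = 1.33e-08). It was higher with trametinib as well, at 564 against 165 in DMSO cells of the first experiment (1.78 ± 0.09, adjusted p = 3.71e-10). Nr4a1, an immediate early gene and RXR partner, averaged 80.5 with trametinib and 484 with DMSO (−2.59 ± 0.13, adjusted p = 2.52e-10).

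Of 18 coregulators of nuclear receptors, 1 was higher and 2 were lower in vehicle tumours than in bladders without BBN (median −0.11), and 1 was higher and 1 lower in treated than in vehicle tumours at 1 month (median 0.09). Of all genes, 15% were called higher and 11.4% lower in the first comparison, and 10.1% and 13.7% in the second. In cells of the first experiment 7 of 17 were higher and 5 lower with both drugs (median 0.12), and the counts were the same with trametinib (median 0.07). That is close to the share over all genes, of which 72.5% were called with both drugs and 71.1% with trametinib. Pprc1, the third gene of the PGC1 family, was lower with trametinib, like Ppargc1b: it averaged 3460 normalised counts with trametinib and 6070 with DMSO (−0.81 ± 0.06, adjusted p = 2.04e-08), and in the second experiment 466 with both drugs and 1460 with DMSO at 72 h (−1.65 ± 0.14, adjusted p = 1.24e-10). With ATRA Pprc1 was lower by −0.77 ± 0.13 at 24 h and by −0.47 ± 0.13 at 72 h.

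Partners and mitochondrial targets of the PGC1 proteins, a list of 18 genes, were largely lower in cells given trametinib, where Ppargc1a was higher and Ppargc1b lower. Of the 17 tested 1 was higher and 14 lower with trametinib (median −0.37 against 0.01 for all genes), and 2 were higher and 14 lower with both drugs (median −0.48 against 0.01). Of all genes tested, 35.3% were called lower with trametinib and 36.2% with both drugs. In the second experiment 1 was higher and 10 lower with both drugs at 24 h (median −0.21), and 1 higher and 12 lower at 72 h (median −0.40). There 27.2% of all genes were called lower at 24 h and 35.1% at 72 h. Idh3a, a subunit of an enzyme of the citric acid cycle, averaged 6950 normalised counts with trametinib and 9950 with DMSO (−0.52 ± 0.04, adjusted p = 5.48e-08). Tfam, which packages and transcribes mitochondrial DNA, averaged 1360 with trametinib and 2060 with DMSO (−0.59 ± 0.05, adjusted p = 3.35e-08). Esrrb, an estrogen-related receptor, was the 1 member higher with trametinib (1.41 ± 0.09, adjusted p = 2.77e-09).

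In tissue, of the 17 genes tested 3 were higher and 1 lower in vehicle tumours than in bladders without BBN (median 0.07), and 2 were higher and 2 lower in treated than in vehicle tumours at 1 month (median −0.12). The shares of all genes were 15% higher and 11.4% lower in the first comparison, and 10.1% and 13.7% in the second. Esrra, the estrogen-related receptor that partners PGC1 alpha, averaged 2070 normalised counts in treated and 1290 in vehicle tumours (0.69 ± 0.16, adjusted p = 0.013). Vehicle tumours, at 1290, were below bladders without BBN, at 1850 (−0.52 ± 0.17, adjusted p = 0.0488). Gabpb1 went the other way, with 1950 in treated and 2910 in vehicle tumours (−0.56 ± 0.17, adjusted p = 0.0336). It was higher in vehicle tumours than in bladders without BBN (0.69 ± 0.18, adjusted p = 0.0161). Sdhb was lower in treated than in vehicle tumours (−0.38), and Cycs higher in vehicle tumours than without BBN (0.88). At 5 days Gabpb1 was the 1 of 17 called (−0.87 ± 0.16, adjusted p = 0.022), against 6.17% of all genes.

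The authors' deposited table of pathways for the 1-month tissue experiment names some of the 7 genes in enriched sets. In the authors' deposited table the KEGG PPAR signaling pathway had a q-value of 0.0156 with 17 genes, among them Pparg, Ppara and Rxra. In the authors' deposited table a liver steatosis pathway had a q-value of 0.00168 with 24 genes, among them Pparg, Ppara and Ppargc1a. The table does not state which gene list or direction was used.

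Finally, the genes whose pattern over the 10 libraries of the 1-month tissue table was most like each member were found among 13362 genes by Pearson correlation of log2 values, as a description without a test, since the libraries share 3 groups. For Pparg these were Sh3gl2 (r = 0.99), Hsd17b14 (r = 0.989) and Mgst1 (r = 0.985). For Rxra they were led by Fam161b (r = 0.995), for Ppargc1a by Agmo (r = 0.97), for Ppara by Usp36 (r = 0.968) and for Rxrb by Spns1 (r = 0.97). Ppard, which differed least between the groups, had Ttc30a1 (r = 0.88), and Ppargc1b had Gjb2 (r = 0.945). Over the 25 libraries of the second cell experiment and 9135 genes the nearest were Clca1 for Pparg (r = 0.947), Itgb8 for Rxra (r = 0.931) and Piga for Ppargc1b (r = 0.935).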

How the data were processed

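Poly-A RNA of bladder tissue and BBN963 cells was sequenced. The deposited values are a signal: per the submitters' processing notes kallisto 0.44.0 quantified reads, and per the file headers the authors normalised counts with DESeq2 within each table. The pathway sheet gives the authors' deposited p-values and q-values. In the deposited file for rosiglitazone, 1630 entries stood beside the wrong symbol and were realigned by their mean, and 25 ambiguous ones were dropped, no member among them. In that for the 3 groups of 1-month tissue, 125 entries also differed from their deposited mean, no member among them, and were left as they stood. In those for trametinib and for both drugs in the first cell experiment, 26 entries each had a calendar date as symbol and were dropped. In the second cell experiment 100.0% of values were whole reads (within 0.1) after dividing by 1 factor per library; other depths are estimates, within 3.37% where they could be checked.

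Genes were tested where the number of libraries with at least 10 normalised counts was that of the smallest group or more, with limma 3.58.1 (R 4.3.3, trend, robust, Benjamini-Hochberg) on log2(value + 1), all groups of a table together, after tests on simulated data. edgeR 4.0.16 and DESeq2 1.42.0 were alternatives on the whole reads. No 2 libraries were copies. The named genes are the 7 members, the 3 most alike per member, and the called list members of lowest adjusted p, up to 2 a direction. One gene that this rule names is not reported here. Members and lists were chosen with earlier results of these data known. Exon lengths and positions come from GRCm38.p6.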

Additional observations from a re-analysis of the deposited data

Results flagged for a closer look

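Single libraries far from the rest of their group were found in 3 of 70 groups examined, where chance flags about 1 in 20 groups. Ppara was at 144 normalised counts in replicate 2 of the tumours treated with rosiglitazone plus trametinib for 5 days, with the nearest of the others at 327. Ppara was at 10.9 in replicate 1 of the cells with both drugs in the first cell experiment, with the nearest at 8.17. Rxrb was at 327 in replicate 1 of the cells with ATRA for 72 h, with the nearest at 281. That library also stood apart in its epithelial and smooth muscle marker sums.

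The effect of rosiglitazone plus trametinib at 72 h in the first cell experiment minus that in the second differed from 0 in limma's test of the difference for 4 of the 7 genes, where 47% of all genes tested were called. The differences of log2 fold change were 0.53 for Pparg, −0.48 for Ppard, −0.59 for Rxrb and 1.54 for Ppargc1a.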

How the results depend on the processing

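No paired analysis was possible because the labels carry no replicate numbers. Of the called results of single members, 248 of 259 kept their direction and call under alternatives other than leaving out a library, and 431 of 458 when 1 library was left out. The count of members higher in treated tumours at 1 month was 4, and 2 in the authors' separate table of these 2 groups (Ppara adjusted p = 0.051, Ppargc1a adjusted p = 0.0969), an alternative chosen after seeing the data. For treated tumours at 1 month against bladders without BBN it was 0, and 1 (Pparg) in a fit of those groups alone. For the effect of both drugs at 72 h minus 24 h it was 0, and 1 with quantile normalisation (Pparg 0.57, adjusted p = 0.0446).

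Leaving out 1 library gave counts of 3 to 3 members for treated against vehicle tumours at 1 month and 0 to 1 at 5 days. In the second cell experiment they were 1 to 2 for both drugs at 24 h, 1 to 3 at 72 h, 1 to 4 for ATRA at 24 h, 0 to 1 for DMSO at 72 h against 24 h, and 0 to 1 for the effect of both drugs at 72 h minus 24 h. They were 6 to 7 for both drugs against rosiglitazone or DMSO in the first, 2 to 4 (24 h) and 4 to 5 (72 h) for both drugs against ATRA, and 3 to 5 for the first minus the second experiment.

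Quantile normalisation turned differences near 0, with the cause not tested. In vehicle tumours against bladders without BBN Ppard became −0.16 and Rxrb −0.02. In treated tumours Ppard became 0.10 against vehicle and −0.05 against no BBN, and Rxrb at 5 days became 0.07. In cells with both drugs at 24 h Ppard became 0.02 and Rxra 0.02 (0 with edgeR), and with DMSO Ppargc1b became 0.07 (0 with DESeq2). For the ATRA effect at 72 h minus 24 h Pparg became −0.03 and Rxrb −0.01, and with edgeR and DESeq2 −0.02 and −0.01. Ppargc1b became −0.04 for the first minus the second experiment. It moved the median of all genes from −0.02 to −0.15 in vehicle tumours against no BBN, from 0.04 to 0.13 at 1 month and from 0.04 to 0.15 at 5 days, and the share of calls that were higher from 56.9% to 45.3%, 42.3% to 56.2% and 11.3% to 24.1%.

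Leaving out 1 library turned these small differences, given as ranges. In tissue they were Rxrb −0.06 to 0.16 (vehicle against no BBN), Ppard −0.19 to 0.10 (1 month) and −0.01 to 0.34 (treated against no BBN), Rxrb −0.12 to 0.07 and Ppargc1a −0.52 to 0.19 (5 days), and Ppara −1.02 to 0.16 (1 month minus 5 days). In the first cell experiment they were Rxra −0.01 to 0.08 and Rxrb −0.04 to 0.02 (rosiglitazone), Ppara −0.41 to 0.19 (trametinib), and for the interaction Pparg −0.08 to 0.06, Rxra −0.02 to 0.06, Rxrb −0.07 to 0 and Ppargc1a −0.04 to 0.28. In the second they were Ppard −0.07 to 0 and Rxra −0.06 to 0.02 (both drugs, 24 h), Pparg −0.03 to 0.20 (72 h), Ppargc1b −0.09 to 0.06 (DMSO), Rxrb −0.02 to 0.10 (both drugs, 72 h minus 24 h), and Pparg −0.11 to 0.14 and Rxrb −0.04 to 0.08 (ATRA, 72 h minus 24 h).

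Over all genes, a fit of only the groups compared called 1407 against 753 genes (treated tumours against no BBN), 731 against 2344 (ATRA, 72 h) and 3229 against 1904 (DMSO). No filter called 5 against 0 with rosiglitazone, 193 against 291 for the interaction and 2 against 1 at 1 month minus 5 days, where quantile normalisation called 15 and a pseudocount of 4 called 4. For ATRA at 72 h minus 24 h the count was 7, and 3 (quantile), 0 (only the groups compared), 13 (edgeR) and 29 (DESeq2). Leaving out 1 library also moved the count over all genes to 3218 from 4946 for vehicle tumours against no BBN (without no-BBN replicate 2), to 2142 and 2216 from 3554 for ATRA at 24 h (without DMSO 24 h replicate 1 or 3), to 1329 and 1432 from 2344 at 72 h (without DMSO 72 h replicate 1 or 2), to between 934 and 1135 from 1904 for DMSO (without 24 h replicate 1 or 3 or 72 h replicate 1 or 2), and to between 1 and 160 from 7 for ATRA at 72 h minus 24 h (160 without ATRA 72 h replicate 1). Few reads limit what can be said of Ppara and Ppargc1a in the second cell experiment, and the part of depth in this was not tested.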
